A study of Oryza sativa with 2 samples.

Results

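The basic helix-loop-helix (bHLH) genes of rice were followed in leaf RNA of the mutant and of the wild-type at a constant 32 °C. Members were found by the wording of the deposited annotation, as every locus whose description holds "basic helix-loop-helix" or "bHLH", and 1 locus with that wording (LOC_Os01g72370) was left out by the same rule. This gave 91 loci with 131 transcript models, out of 26715 loci with 36450 models. Of the 91 descriptions, 80 name the DNA-binding superfamily, 8 name the DNA-binding family and 3 have a wording of their own. The rule itself uses no measured value, but the family was picked with earlier results of these data known.

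RNA-seq compared 1 library of the mutant with 1 library of the wild-type, *japonica* cv. Zhonghua11. The mutant is an EMS-induced line in the Zhonghua11 background with a single-base change in *White Leaf and Panicle 2* (*WLP2*, LOC_Os01g63220), a chloroplast protein associated with the plastid-encoded RNA polymerase, and its columns are headed *wlp2s*. In the second deposited table the mutant columns are headed wlp1 instead. The paper states that its RNA-seq compared *wlp2s* with wild-type plants, so the name *wlp2s* is kept here. Every direction given here still rests on the column headings, which say which library is the mutant. Seedlings of both genotypes grew on 1/2 MS medium under a 12/12 h light/dark cycle, and no other treatment or transgene is given. Whether each library came from 1 plant or from several is not given in the sources used here. Since each genotype has a single library, the spread between plants is unknown, no difference was tested, no p-value is given, and genotype and library cannot be told apart. Depth was 9327778 counts in the library labelled *wlp2s* and 9080323 counts in the wild-type library. *WLP2* itself stood at 9.10 RPKM in the library labelled *wlp2s* and at 6.61 RPKM in the wild-type library (RPKM, reads per kilobase of transcript scaled to sequencing depth), a ratio of counts of 1.38 (1.09 to 1.74, exact 95% binomial interval). The transcript was thus higher, not lower, in the library labelled *wlp2s*, and this level does not bear out the label. In general a single-base lesion need not lower a transcript, but the paper reports less *WLP2* mRNA in *wlp2s* than in wild-type. It reports this at normal and at high temperature, so the direction found here is opposite to that report. Why the directions differ was not tested. The base itself cannot be read from these values, so the label was not checked on the mutation. The tissue label was checked on 4 Rubisco small subunit loci, which summed to 7476 RPKM in the library labelled *wlp2s* and 7424 RPKM in wild-type, and on 14 light-harvesting loci, which summed to 9834 RPKM in the library labelled *wlp2s* and 12099 RPKM in wild-type.

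The bHLH domain joins a basic stretch that contacts DNA to a pair of helices through which these proteins form dimers, and the dimers bind E-box elements in promoters. In plants the family includes the phytochrome-interacting factors of light signalling, MYC-type activators of the jasmonate response, regulators of iron uptake, factors of stomatal and tapetal development and small proteins without DNA contact that act in brassinosteroid signalling. Many of these assignments come from Arabidopsis, and the deposited descriptions are worded as those of Arabidopsis genes. They do not pair most rice loci with a gene name, so loci are called here by their ID, and a role is given only where the description, a GO term or a KEGG pathway of the table supplies one.

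The bHLH family as a whole stood at nearly the same level in both libraries. Each locus was described by its log2(RPKM + 1) in the library labelled *wlp2s* minus that in wild-type, called its difference. Loci that reached 1 RPKM in either library were kept, and those whose difference was 1 or more, or -1 or less, were counted as past the size rule. Of the 91 loci, 55 passed the filter on low values. Among these 55, 1 locus was higher by the size rule and 0 were lower. Over all 18639 loci past the filter, 1.79% were higher and 1.01% were lower by the same rule, so these counts, 1.82% and 0% of the bHLH loci, lie near the background. The median difference of the 55 loci was 0.0065 on the log2 scale (quartiles -0.17 and 0.24), against 0.0018 over all loci past the filter (quartiles -0.18 and 0.21). Differences above 0 were seen at 28 loci and below 0 at 27. In bulk leaf RNA, fewer cells of a type and less RNA per cell cannot be told apart, and this holds for every value given here.

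Reads assigned to the 91 loci summed to 16631 counts in the library labelled *wlp2s* and to 15461 counts in wild-type, that is 0.178% of the counts in the library labelled *wlp2s* and 0.170% in wild-type. The ratio of these sums, scaled to depth, was 1.05 with an exact 95% binomial interval of 1.02 to 1.07. This interval and those below cover counting error only. They say how well a ratio of these 2 libraries is known and not whether the genotypes differ.

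Within the family, levels spanned a wide range and their order was nearly kept between the libraries. The 55 loci past the filter had a median of 8.75 RPKM in the library labelled *wlp2s* and 7.96 RPKM in wild-type, and 28 of them reached 10 RPKM in at least 1 library. Spearman's rho between both libraries was 0.96 across the 55 loci, which are not independent replicates and share both libraries. The 8 loci with the highest mean level held 55.3% of the summed RPKM of the family in the library labelled *wlp2s* and 54.2% in wild-type. Their differences lay between -0.05 and 0.46.

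LOC_Os08g04390 had the highest mean level, with 89.1 RPKM in the library labelled *wlp2s* and 90.2 RPKM in wild-type. LOC_Os02g02480 has divided reads, a term used here for a locus total that is not a whole number, as arises where a read is shared out among loci, and it stood at 85.2 RPKM in the library labelled *wlp2s* and 85.6 RPKM in wild-type. LOC_Os01g43680 reached 65.5 RPKM in the library labelled *wlp2s* and 68.0 RPKM in wild-type. The counting intervals of all 3 ratios included equal levels, and none reached below 0.891 or above 1.10. LOC_Os08g39630, the locus with the most counts (2113 in the library labelled *wlp2s* and 1908 in wild-type, divided reads), had a ratio of 1.08 (1.01 to 1.15). LOC_Os10g40740 was at 78.7 RPKM in the library labelled *wlp2s* and at 67.6 RPKM in wild-type, a ratio of 1.16 (1.08 to 1.26). LOC_Os05g38140 was at 68.5 RPKM in the library labelled *wlp2s* and at 64.2 RPKM in wild-type, a ratio of 1.07 (0.965 to 1.18). At all 6 loci above 50 RPKM in both libraries the levels thus lay within 1.16-fold of each other. The next in mean level, LOC_Os04g41229, stood further apart, with 50.6 RPKM in the library labelled *wlp2s* and 36.5 RPKM in wild-type and a ratio of 1.39 (1.24 to 1.54).

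**Figure D1:**
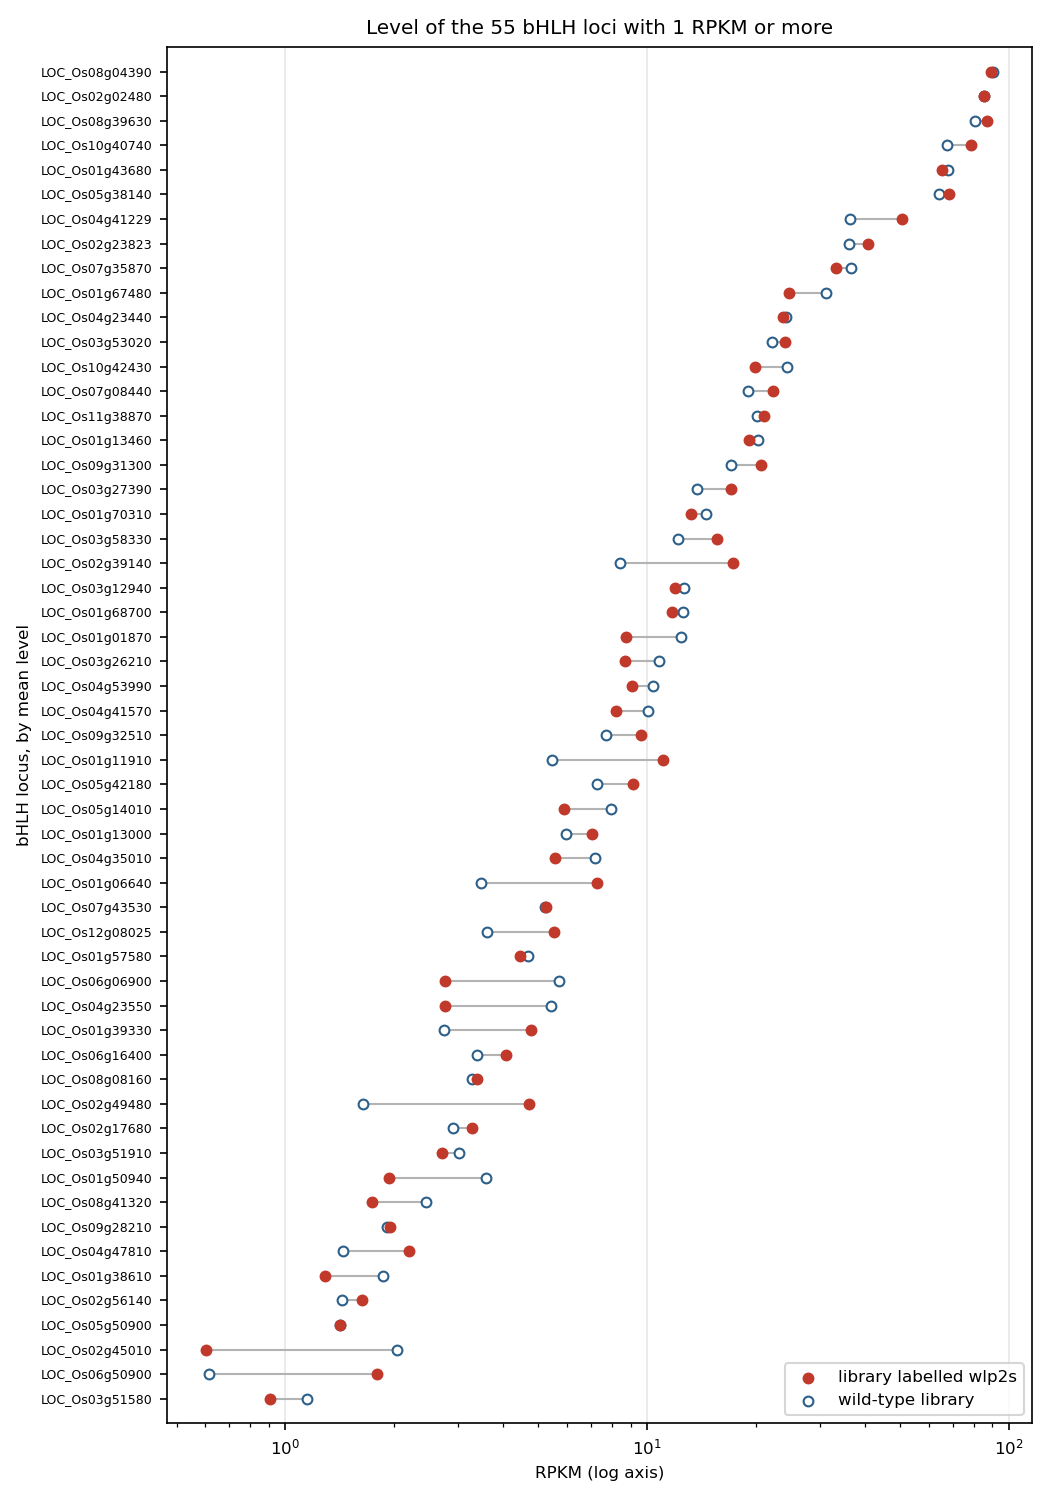
RPKM on a log axis of the 55 bHLH loci with at least 1 RPKM in at least 1 library, ordered by mean level, with filled points for the library labelled *wlp2s* and open points for the wild-type library (1 library each). The points of a locus mostly overlap or lie close together, and the wide gaps are found mainly below 20 RPKM.

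Differences were wider among weakly expressed members. The 28 loci that reached 10 RPKM in a library had a median difference of -0.01 (quartiles -0.13 and 0.22), and none of them passed the size rule. The 27 loci between 1 and 10 RPKM had a median of 0.02 (quartiles -0.32 and 0.29), and the locus past the size rule is among them. Counting error is larger at this level, and its part in the wider differences was not tested.

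The locus past the size rule was LOC_Os02g49480, annotated to the response to endogenous stimulus and to signal transduction. It had 74 counts in the library labelled *wlp2s* and 25 counts in wild-type, or 4.73 RPKM in the library labelled *wlp2s* and 1.64 RPKM in wild-type. Its difference was 1.12 and its ratio 2.88 (1.81 to 4.73). Its counts are whole numbers in both libraries, although fractions of reads can also add up to a whole number. As the only member past the rule it is also the nearest one inside it.

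Just outside the rule, 3 loci stood close to 2-fold higher in the library labelled *wlp2s*. LOC_Os02g39140 was at 17.3 RPKM in the library labelled *wlp2s* and at 8.44 RPKM in wild-type, with a difference of 0.95 and a ratio of 2.05 (1.65 to 2.56). LOC_Os01g11910 was at 11.1 RPKM in the library labelled *wlp2s* and at 5.45 RPKM in wild-type (difference 0.91, divided reads). LOC_Os01g06640 was at 7.28 RPKM in the library labelled *wlp2s* and at 3.47 RPKM in wild-type (difference 0.89). Their ratios were all between 2.04 and 2.06, and they missed the rule through the constant of 1 added before the logarithm. With a constant of 0.1, 5 loci were higher and 2 were lower by the rule. With a constant of 5 none was higher, and no share over all loci was taken at either constant. These differences rest on 259, 223 and 91 counts in the library labelled *wlp2s*, against 123, 106.5 and 43 counts in wild-type.

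In the other direction, LOC_Os02g45010 and LOC_Os06g06900 were the nearest to the rule. By their ratios both stood more than 2-fold lower, and they too missed the rule through the added constant of 1. LOC_Os02g45010 had 11 counts in the library labelled *wlp2s* and 36 counts in wild-type, a difference of -0.92 and a ratio of 0.297 (0.137 to 0.597). LOC_Os06g06900, annotated to flower development and to the responses to stress and abiotic stimulus, was at 2.75 RPKM in the library labelled *wlp2s* and at 5.70 RPKM in wild-type, a ratio of 0.484 (0.319 to 0.723, divided reads). Both loci are weakly expressed, and 11 counts leave the first ratio known only to within a wide interval.

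Counted by interval in place of size, 13 of the 55 loci had a counting interval above 1 and 9 had one below 1. The shares over all loci past the filter were 16.0% above and 15.3% below, against 23.6% and 16.4% of the bHLH loci. Such counts grow with depth at a locus and take no account of variation between plants. For the other 33 loci the interval included equal levels. An interval that includes 1 does not show equal levels, and at LOC_Os12g08025, for example, it ran from 0.797 to 3.04. Members beyond those past or nearest to the size rule, the 5 with the highest mean level, those with a wording of their own and neighbours were chosen for naming after their values were seen, here and in the lists of other genes.

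LOC_Os06g50900 had 30 counts in the library labelled *wlp2s* and 10 counts in wild-type, a ratio of 2.92 (1.39 to 6.70). At 1.79 RPKM in the library labelled *wlp2s* and 0.613 RPKM in wild-type its difference was 0.79, short of the rule through the added constant of 1. LOC_Os01g39330 was at 4.79 RPKM in the library labelled *wlp2s* and at 2.75 RPKM in wild-type, a ratio of 1.74 (1.23 to 2.49). Smaller ratios, from 1.21 to 1.29, were found at LOC_Os09g31300 (divided reads), LOC_Os02g23823, LOC_Os03g27390 and LOC_Os03g58330. Below wild-type, LOC_Os04g23550 had 35 counts in the library labelled *wlp2s* and 67 counts in wild-type, a ratio of 0.509 (0.328 to 0.776). LOC_Os05g14010 and LOC_Os04g35010 had ratios of 0.738 and 0.779, the second with divided reads. LOC_Os01g67480 was the most highly expressed of the lower loci, at 24.7 RPKM in the library labelled *wlp2s* and 31.2 RPKM in wild-type, with a ratio of 0.792 (0.692 to 0.906). Of the loci that reached 10 RPKM in a library, 9 had intervals above 1 and 3 below, and of the weaker loci 4 had intervals above 1 and 6 below. Shares over all loci were not taken by level, so no lean particular to the family is read from these counts.

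**Figure D2:**
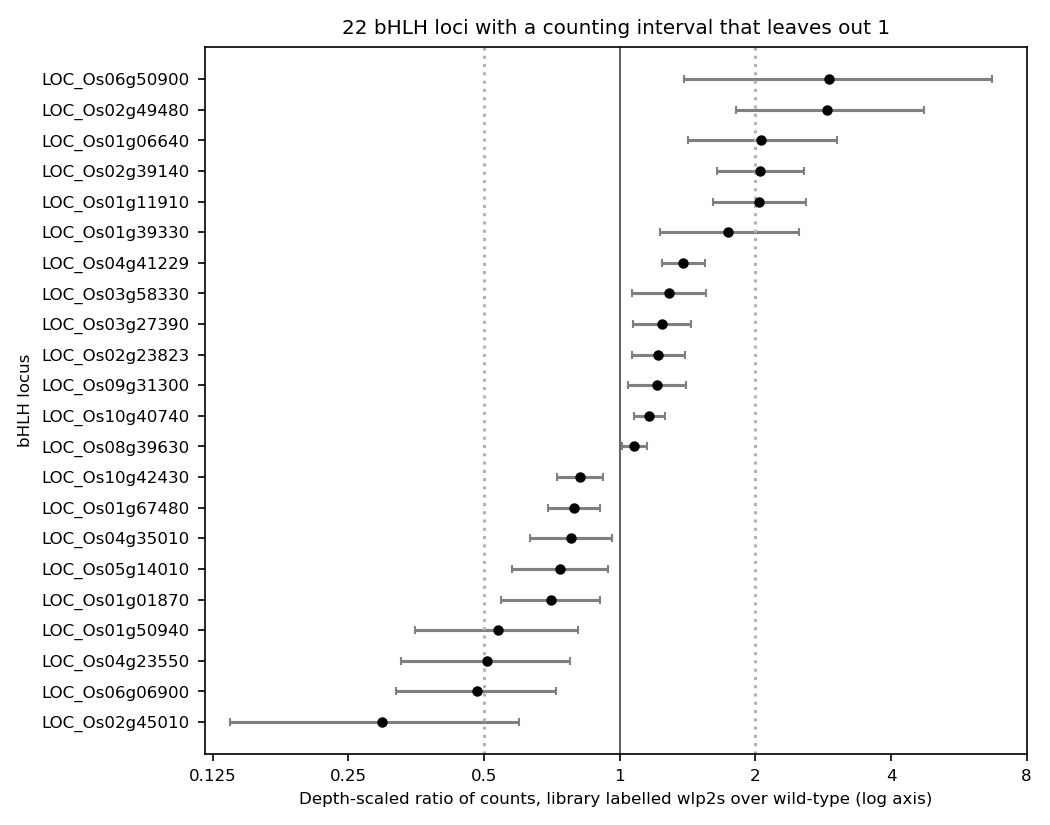
Depth-scaled ratio of counts, library labelled *wlp2s* over wild-type, on a log axis for the 22 of the 55 bHLH loci past the filter whose exact 95% binomial interval leaves out 1. Bars give the interval, which covers counting error only, and dotted lines mark ratios of 0.5 and 2. The 13 loci above 1 run up to 2.92 and the 9 below 1 run down to 0.297.

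Members with an annotated role were then taken group by group. GO groups were read from the table after its terms had been seen, and they overlap. A single member, LOC_Os10g42430, is placed in the KEGG pathway of plant hormone signal transduction, and it is also annotated to the response to biotic stimulus and to secondary metabolic process. It was at 19.9 RPKM in the library labelled *wlp2s* and at 24.4 RPKM in wild-type, a ratio of 0.816 (0.724 to 0.919), with divided reads.

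The 9 members annotated to the response to endogenous stimulus, the GO class that takes in hormone responses, went in both directions. Of these, 5 passed the filter, with a median difference of -0.27, against 0.013 over all 868 loci with the term past the filter. LOC_Os02g49480 is the highest of them and LOC_Os01g50940 the lowest. LOC_Os04g41570 was at 8.21 RPKM in the library labelled *wlp2s* and at 10.1 RPKM in wild-type, and LOC_Os12g08025 had 26 counts in the library labelled *wlp2s* and 16.5 counts in wild-type. Neither interval left out equal levels. The summed reads of the 9 loci had a ratio of 0.870 (0.789 to 0.960), and LOC_Os10g42430 alone supplied 513.5 of 770.5 counts in the library labelled *wlp2s* and 612.5 of 862 counts in wild-type.

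Both loci described as ABA-inducible bHLH-type transcription factors were detected. The name refers to induction by abscisic acid, as known from Arabidopsis. LOC_Os01g13460 was at 19.1 RPKM in the library labelled *wlp2s* and at 20.2 RPKM in wild-type, a ratio of 0.947 (0.833 to 1.08). LOC_Os01g50940 was at 1.93 RPKM in the library labelled *wlp2s* and at 3.60 RPKM in wild-type, a ratio of 0.536 (0.351 to 0.808). The weaker of both loci therefore stood lower in the library labelled *wlp2s*, whereas the interval of the stronger one included equal levels. The locus described as ILI1 binding bHLH 1, LOC_Os04g56500, carries the name of a rice protein that restrains cell elongation in brassinosteroid signalling. It had 36 counts in the library labelled *wlp2s* and 34 counts in wild-type, which is 0.583 RPKM in the library labelled *wlp2s* and 0.566 RPKM in wild-type, under the filter.

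Of 11 members annotated to the response to stress, 10 passed the filter and 0 passed the size rule. Their median difference was -0.06, against 0.03 over all 2111 loci with the term past the filter, where 3.41% were higher by the size rule. Summed reads had a ratio of 0.941 (0.882 to 1.00). LOC_Os06g06900 was the farthest below and LOC_Os03g58330, at 15.6 RPKM in the library labelled *wlp2s* and 12.1 RPKM in wild-type, the farthest above. The response to abiotic stimulus is held by 7 members, and the 4 past the filter include LOC_Os01g70310, at 13.2 RPKM in the library labelled *wlp2s* and 14.6 RPKM in wild-type (divided reads). Their median difference was -0.21, against 0.033 over all 1344 loci with the term past the filter, of which 2.83% passed the size rule upward and 1.41% downward. Summed reads of the 7 had a ratio of 0.819 (0.743 to 0.901), with LOC_Os10g42430 again supplying most of the counts. None of the bHLH loci with either term passed the size rule.

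LOC_Os03g26210, LOC_Os07g43530 and LOC_Os11g38870 share the terms response to extracellular stimulus, cell communication and plastid. In the order named, their levels were 8.67, 5.25 and 21.1 RPKM for the library labelled *wlp2s*, against 10.8, 5.22 and 20.1 RPKM for wild-type. Each interval included equal levels, as did that of their summed reads (ratio 0.982, 0.868 to 1.11). In all, 8 members carry the plastid term, and the 6 past the filter lay between -0.29 and 0.07.

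Members annotated to flower development were weak in leaves of both genotypes. Of 7 such loci, 4 were under the filter (LOC_Os02g02820, LOC_Os07g36460, LOC_Os08g36740 and LOC_Os08g38080), with at most 6 counts in a library. LOC_Os09g28210 was at 1.95 RPKM in the library labelled *wlp2s* and at 1.91 RPKM in wild-type. LOC_Os02g56140, with divided reads, was at 1.63 RPKM in the library labelled *wlp2s* and at 1.43 RPKM in wild-type. Summed reads of the 7 were 99 counts in the library labelled *wlp2s* and 131 counts in wild-type, of which LOC_Os06g06900 held 38 in the library labelled *wlp2s* and 76.5 in wild-type. The reproduction term is held by 5 members that were all past the filter, among them LOC_Os10g40740 and LOC_Os07g08440, which stood at 22.3 RPKM in the library labelled *wlp2s* and 19.0 RPKM in wild-type. Their median difference was 0.22, against -0.012 over all 575 loci with the term past the filter, and 4 of the 5 were above 0. Summed reads had a ratio of 1.15 (1.08 to 1.23), and LOC_Os10g40740 alone supplied 1423 of 2001 counts in the library labelled *wlp2s* and 1190 of 1695 counts in wild-type.

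Transcript models of a locus mostly lay on the same side of 0. At 21 loci with at least 2 models of at least 10 counts over both libraries, this held at 18, and the models of 3 lay on both sides. The models share reads, which were divided among them, so they are not separate measurements. Both models of LOC_Os02g39140 had differences of 0.88 and 0.89, and the 3 models of LOC_Os01g06640 had differences of 0.73, 0.79 and 0.49. LOC_Os02g23823 had the widest gap between models. Its first model was at 22.1 RPKM in the library labelled *wlp2s* and 16.8 RPKM in wild-type (difference 0.38), and its other models had differences of -0.08 and -0.01. The difference of this locus was 0.17 from summed RPKM, while its ratio of counts was 1.22. At LOC_Os03g12940 and LOC_Os02g02480, the models on either side of 0 had intervals that included equal levels.

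**Figure D3:**
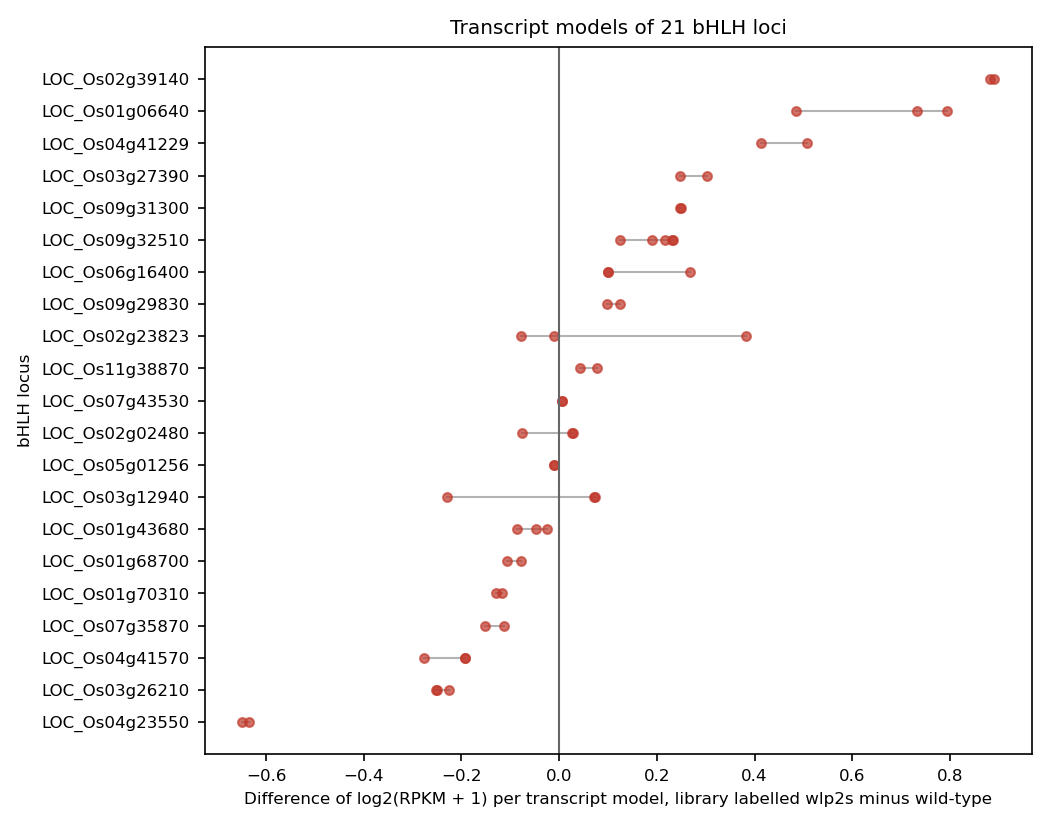
Difference of log2(RPKM + 1), library labelled *wlp2s* minus wild-type, for each transcript model (points) of the 21 bHLH loci with at least 2 models of at least 10 counts over both libraries, with a line joining the models of a locus. The points of most loci lie close together, and the widest line, at LOC_Os02g23823, runs from -0.08 to 0.38.

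The other 36 members did not reach 1 RPKM in either library. Of these, 29 had fewer than 10 counts in each library, too few at this depth for a difference to be detected. A count of 0 was found at 11 of the 36, at 4 in the library labelled *wlp2s* and at 7 in wild-type, and no member past the filter had a count of 0. In each of these 11 the other library had at most 3 counts, the limit that a count of 0 allows, so no fold is given. LOC_Os01g09990 differs from the rest of the 36, with 10.7 counts in the library labelled *wlp2s* and 1 count in wild-type. Its ratio of 10.4 has an interval of 1.5 to 448, and its count in the library labelled *wlp2s* is not a whole number.

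Reads divided between loci affect part of these values. Totals that departed by more than 0.001 from a whole number in at least 1 library were found at 17 of the 55 members past the filter, or 30.9%, and at 39.0% of all loci past the filter. With the 38 members of whole-number counts alone, the count past the size rule was again 1 higher and 0 lower, and the median difference was -0.0057.

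The family was set beside 4 other families of transcription factors found by annotation words. Of 40 bZIP loci past the filter, 0 passed the size rule, and of 79 MYB loci 1 was higher and 0 were lower. Of 57 NAC loci, 5 were higher and 0 lower, and of 56 WRKY loci, 3 were higher and 1 lower. Median differences were 0.0065 for bHLH, 0.09 for bZIP, 0.00047 for MYB, 0.01 for NAC and 0.23 for WRKY. Differences above 0 were found at 50.9% of the bHLH loci, 67.5% of the bZIP loci, 50.6% of the MYB loci, 54.4% of the NAC loci and 73.2% of the WRKY loci. Over all loci past the filter the share was 50.3%, so the bHLH, MYB and NAC families lay close to all loci in median and in this share. By the size rule, however, 8.77% of the NAC loci and 5.36% of the WRKY loci were higher, against 1.79% of all loci. The differences between families were not tested.

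**Figure D4:**
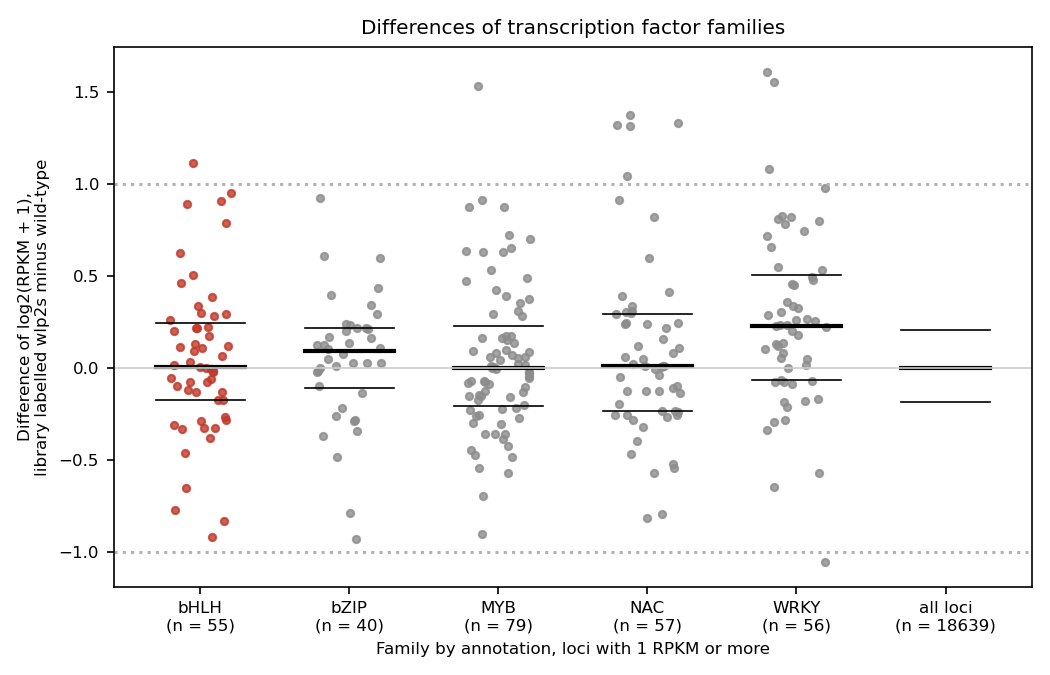
Difference of log2(RPKM + 1), library labelled *wlp2s* minus wild-type, for loci of 5 transcription factor families (points) with median (thick line) and quartiles (thin lines), and the median and quartiles of all 18639 loci past the filter at the right. Dotted lines mark the size rule. The bHLH points centre on 0 with 1 point above the upper line, and the WRKY points centre at 0.23.

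Genes that are known to work with bHLH factors were read from lists set by annotation words. The rule does not take in 15 bHLH-type loci with another wording, of which 8 passed the filter and 0 passed the size rule. Phytochrome-interacting factors, which act in light signalling and are held down by phytochromes in Arabidopsis, made up 4 of the 8, and all 4 had small differences above 0 (0.21 to 0.33). Of these 4, 3 have divided reads, and the interval of LOC_Os03g43810 included equal levels (0.931 to 1.51). LOC_Os07g05010, described as phytochrome interacting factor 3, was at 65.8 RPKM in the library labelled *wlp2s* and 52.1 RPKM in wild-type, a ratio of 1.26 (1.16 to 1.37, divided reads). LOC_Os03g56950, described as phytochrome interacting factor 3-like 5, was at 59.9 RPKM in the library labelled *wlp2s* and 51.6 RPKM in wild-type, a ratio of 1.16 (1.06 to 1.27). Both loci described as BES1-interacting Myc-like protein 2, partners of a brassinosteroid-response factor in Arabidopsis, were below 0. LOC_Os09g29930 was at 20.8 RPKM in the library labelled *wlp2s* and 28.9 RPKM in wild-type, a ratio of 0.754 (0.652 to 0.872). LOC_Os08g38210 was at 4.15 RPKM in the library labelled *wlp2s* and 5.59 RPKM in wild-type. Its ratio was 0.741, with an interval that included equal levels (0.531 to 1.03). LOC_Os06g09370, described as LJRHL1-like 3, was also below 0, at 15.9 RPKM in the library labelled *wlp2s* and 21.7 RPKM in wild-type. The ratio of this locus was 0.732 (0.630 to 0.850), and 5 of the 8 loci lay above 0.

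JAZ proteins, which contain a TIFY motif, bind and repress MYC-type bHLH factors of the jasmonate response. Of 11 JAZ and TIFY loci, 10 passed the filter, with 0 higher and 1 lower by the size rule and a median difference of -0.42. Counting intervals were below 1 at 7 and above 1 at 2 of the 10, that is 70% and 20%, where 15.3% of all loci past the filter were below and 16.0% above. Such counts grow with depth at a locus, and these loci were more highly expressed. Their median of mean RPKM was 20.6, against 9.39 over all loci past the filter. LOC_Os10g25290, described as jasmonate-zim-domain protein 1, was at 10.7 RPKM in the library labelled *wlp2s* and 22.6 RPKM in wild-type, a ratio of 0.472 (0.366 to 0.606). LOC_Os08g33160, described as jasmonate-zim-domain protein 3, was at 29.9 RPKM in the library labelled *wlp2s* and 19.1 RPKM in wild-type (divided reads). The other locus with an interval above 1 was LOC_Os04g32480, described as jasmonate-zim-domain protein 10. It had 10 counts in the library labelled *wlp2s* and 1 count in wild-type, a ratio of 9.73 (1.38 to 422). GRAS factors, the family of the DELLA repressors that bind phytochrome-interacting factors, had a median of 0.13 over 15 loci past the filter, and 0 passed the size rule. The 3 phytochrome loci had differences of -0.12 (phytochrome A), 0.22 (phytochrome B) and 0.05 (phytochrome C).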

How the data were processed

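Total leaf RNA was sequenced single-end on an Illumina HiSeq instrument, and TopHat, Cufflinks and Cuffdiff are named in the submitters' processing notes without versions or roles. The genome build, annotation release and counting tool are not given in the sources used here. The authors deposited estimated counts per transcript model, in part fractions, and RPKM values that the authors derived from them. A second deposited table with the authors' own log2 fold changes, P-values and FDR was not used, nor its value columns, which are headed wlp1 and ZH11 instead of *wlp2s* and WT. Model values were summed per locus, and depth was 9327778 counts in the mutant and 9080323 counts in the wild-type library. The bHLH members and all lists were chosen with earlier results of these data known. Words that matched unrelated genes (the magnesium chelatase subunit CHLH, RHD3, rectifying channels, the nascent polypeptide-associated complex, a JAZ interactor) were left out. The rule for named loci took those past the size rule, the 5 with the highest mean RPKM, the 5 nearest to the rule inside and outside it, up to 2 per wording of their own and neighbouring pairs with at least 10 counts in a library. Depth-scaled ratios of counts have Clopper-Pearson intervals (95%) for counting error only, since the reads carry no molecular identifiers. Alternatives varied the pseudocount, filter, scaling, unit and wording. The procedures were tested on simulated data that held counting error only, with changes set only at loci with a mean of at least 5 RPKM. For the size rule this test does not cover weaker loci, LOC_Os02g49480 among them, and it does not cover variation between plants. Of the 91 locus IDs, 0 matched the RefSeq table. Python 3.11.15, numpy 2.4.6, pandas 2.3.3, scipy 1.17.1 and matplotlib 3.10.9 were used.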

Additional observations from a re-analysis of the deposited data

How the results depend on the processing

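The count of bHLH loci past the size rule depended on the scale. With a pseudocount of 0.1 it was 5 higher and 2 lower, with a pseudocount of 5 it was 0 higher and 0 lower, and with at least 5 RPKM it was 0 higher over 38 loci. A ratio of counts with 0.5 added, over 70 loci with at least 10 counts in both libraries together, gave 7 higher and 5 lower. A size rule of 1.5-fold, chosen after seeing the data, gave 6 higher and 4 lower. Shares over all loci were taken under the main rule only, so whether the family lies near the background under these other settings is not known. Without a filter, with rescaled RPKM, with single models, with whole-number counts and with the added wording it was 1 higher and 0 lower. The median difference stayed between -0.0057 and 0.03, and the ratio of total reads between 1.04 and 1.06. The 16 single-locus ratios moved by less than their counting intervals under median-ratio scaling. No paired analysis was possible because each genotype has 1 library.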

Other observations

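Members lie on all 12 chromosomes by their locus IDs, from 3 on chromosomes 10 and 12 to 19 on chromosome 1. A single pair lay within 50 locus numbers of each other on 1 chromosome. LOC_Os01g01870 had 110 counts in the library labelled *wlp2s* and 152 counts in wild-type, a ratio of 0.704 (0.546 to 0.906), and its neighbour LOC_Os01g01840 had 5 counts in the library labelled *wlp2s* and 2 counts in wild-type.

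A second pair on chromosome 1, LOC_Os01g09930 and LOC_Os01g09990, lay 60 locus numbers apart and was noticed after the values were seen. Their fractional counts, 0.333 and 10.7 in the library labelled *wlp2s*, added up to 11, against a sum of 1 in wild-type. How many of these reads were shared between both loci cannot be read from the counts.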
